A study of Mus musculus with 4 samples.

Results

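The guanylate-binding protein (Gbp) family was described in cultured mouse primary myoblasts with and without a functional Tet2 gene. The 10 members, Gbp2 to Gbp11, were chosen by gene symbol among the 24445 genes of the expression table, and the family was selected from these data because Gbp10 was much lower in Tet2 KO. Every expression difference below comes from that same contrast and is a description, with no test. RNA had been sequenced from 4 libraries, 2 from WT and 2 from Tet2 KO animals, all C57BL/6. Tet2 encodes an enzyme that oxidises 5-methylcytosine in DNA. Per the study's methods, the Tet2 KO mice lack exon 3 of Tet2 throughout the body, and experiments used young adult males unless stated otherwise. Muscle stem cells (satellite cells) had been sorted from hindlimb muscle without leukocyte, endothelial and Sca1+ cells. Both groups had then grown as myoblasts on collagen in the same medium, which the labels call T cell medium. The labels do not say whether the libraries of a group came from separate animals. The authors' table gives 1 pooled FPKM value (fragments scaled to transcript length and to sequencing depth) per gene and group. No value per library was used, so no SD or p-value stands beside any level, and the spread between replicates is unknown.

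Guanylate-binding proteins are large GTPases of cell-autonomous immunity. Their genes are among the most strongly induced by interferon-gamma, also in cells that are not leukocytes. The proteins bind and hydrolyse GTP, assemble on the membranes of vacuoles that hold bacteria or parasites, and help to break these membranes and to switch on inflammasomes. In the mouse the genes lie in 2 clusters of repeated copies, on chromosomes 3 and 5, and copies within a cluster can be so alike that short reads do not separate them. The question asked of these data was therefore whether signal had moved from Gbp10 to its relatives on chromosome 5 or chromosome 3.

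In the mm9 genome build, Gbp5, Gbp7, Gbp3 and Gbp2 lie in this order on the plus strand of chromosome 3, between 142159898 and 142300972. Gbp8, Gbp9, Gbp4, Gbp10, Gbp6 and Gbp11 lie on the minus strand of chromosome 5, between 105443172 and 105775495. Gbp10 itself spans 105644718 to 105668552, and Gbp6, its next neighbour, spans 105699721 to 105722718. All 10 members are annotated as protein coding in GENCODE vM1, with 1 to 5 coding transcripts each. The only annotated transcript of Gbp11 holds 1329 bases, all coding, so no untranslated part of it is annotated.

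To show how close the copies are, the family's hallmark was read first. It is the P-loop, the part of the GTPase that holds the phosphates of GTP. A 60-base coding window around it was taken from the longest annotated transcript of each gene, inside a single exon. Capitals mark bases that differ from Gbp10, whose window lies at chr5:105664986-105665045 on the minus strand of mm9.
Gbp10: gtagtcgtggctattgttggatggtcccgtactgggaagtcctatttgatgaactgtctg
Gbp6: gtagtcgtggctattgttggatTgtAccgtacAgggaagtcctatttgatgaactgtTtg
Gbp9: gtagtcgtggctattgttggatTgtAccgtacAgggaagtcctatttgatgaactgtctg
Gbp8: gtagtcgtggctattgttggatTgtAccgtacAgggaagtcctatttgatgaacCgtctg
Gbp11: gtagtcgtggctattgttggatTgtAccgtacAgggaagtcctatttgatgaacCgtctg
Gbp4: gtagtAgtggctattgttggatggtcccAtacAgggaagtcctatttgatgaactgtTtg
Gbp7: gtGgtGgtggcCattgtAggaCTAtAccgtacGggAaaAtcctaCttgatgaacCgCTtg
Gbp3: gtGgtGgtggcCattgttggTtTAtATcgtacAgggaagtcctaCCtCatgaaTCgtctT
Gbp2: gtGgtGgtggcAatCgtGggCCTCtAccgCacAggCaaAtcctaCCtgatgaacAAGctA
Gbp5: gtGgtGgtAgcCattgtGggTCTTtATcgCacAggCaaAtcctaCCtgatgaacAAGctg
The windows of the other chromosome 5 members differed from Gbp10 at 3 to 4 of 60 bases. Those of the chromosome 3 members differed at 15 to 20 bases, 15 in Gbp7 and Gbp3 and 20 in Gbp2 and Gbp5. The Gbp6 window lies at chr5:105719872-105719931 on the minus strand, and the Gbp2 window at chr3:142286772-142286831 on the plus strand.

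Gbp10 and Gbp6 were the closest pair of the family. Their coding parts differed at 30 of 1836 aligned bases (98.4% identity), with no gap. The part after the coding end differed at 4 of 2398 bases, and the longest run without a difference held 1185 bases. The 60-base coding window in which they differ most is shown because a read that covers it can tell them apart. It holds 9 of the 30 differences, in capitals, and lies at chr5:105647430-105647489 in Gbp10 and at chr5:105703230-105703289 in Gbp6, both on the minus strand of mm9.
Gbp10: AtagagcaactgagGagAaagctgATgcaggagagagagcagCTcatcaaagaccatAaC
Gbp6: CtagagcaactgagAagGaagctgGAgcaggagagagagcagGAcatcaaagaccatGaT

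The chromosome 5 copies were all closely alike, but near identity was a feature of Gbp6 and Gbp10 alone. The next closest pair, Gbp8 and Gbp11, had 95.9% identity. The 15 pairs within chromosome 5 had identities of 90.2% to 98.4%, with a median of 91.9%. The 6 pairs within chromosome 3 had 64.4% to 78.5%, with a median of 65.2%. This was no closer than the 24 pairs between the chromosomes, which had 63.5% to 76.7% and a median of 70.2%. A stricter measure asks which stretches of 50 bases in the transcripts of a gene occur without a mismatch in another member. Of the 50-base stretches of Gbp10, 76.1% occurred in Gbp6, 4.61% in Gbp8, 4.24% in Gbp4, 1.78% in Gbp11 and 1.73% in Gbp9, and 0 occurred in any chromosome 3 gene of the family. For the shorter annotated Gbp10 transcript alone, 70.6% of stretches occurred in Gbp6. In turn 75.3% of the stretches of Gbp6 occurred in Gbp10. Gbp11 shared 34.5% of its stretches with the rest of the family and Gbp8 18.3%, whereas Gbp4 shared 12.2% and Gbp9 9.07%. On chromosome 3, Gbp3 shared 3.92%, Gbp7 2.29%, Gbp2 2.03% and Gbp5 none. Between the clusters the overlap was 1 stretch of Gbp11 in common with Gbp3 and Gbp7 and 1 stretch of Gbp9 in common with Gbp7.

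The chromosome 5 cluster held the large differences. Gbp10 had 43.2 FPKM in WT and 6.32 FPKM in Tet2 KO, a 6.84-fold lower level. On the log2(FPKM + 1) scale, used for the ratios of single genes below, its log2 ratio of Tet2 KO over WT was -2.59. That was rank 6 from the lowest among 11692 genes that averaged 1 FPKM or more over the groups. This ratio is the value for which the family was chosen. Gbp11 had 7.29 FPKM in WT and 2.07 FPKM in Tet2 KO (log2 ratio -1.43). Gbp8 had 26.0 FPKM in WT and 9.58 FPKM in Tet2 KO (-1.35). Thus 3 of the 10 members, all on chromosome 5, were at least 2-fold lower, and 0 of 10 were at least 2-fold higher. Over all 11692 genes, 1.21% were at least 2-fold lower and 2.08% at least 2-fold higher. The choice used this contrast, so nothing is read from the difference between those shares. Gbp8 was the member nearest to the 2-fold limit on its lower side, and Gbp9 was the nearest that stayed within it.

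The remaining chromosome 5 members differed less and not all in the same direction. Gbp9 had 73.1 FPKM in WT and 57.1 FPKM in Tet2 KO (log2 ratio -0.35). Gbp4 had 104 FPKM in WT and 109 FPKM in Tet2 KO (0.07), the highest level of this cluster in both groups. Gbp6, the near copy of Gbp10, had 47.5 FPKM in WT and 59.8 FPKM in Tet2 KO (0.33). Along the chromosome the members at least 2-fold lower were not direct neighbours. Gbp10 and Gbp11 stand on either side of Gbp6, and Gbp8 lies at the far end next to Gbp9, itself lower to a lesser degree.

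On chromosome 3, Gbp2 and Gbp5 were higher in Tet2 KO, and Gbp3 and Gbp7 were nearly equal in both groups. Gbp2, whose protein is lipid-anchored and is recruited to the vacuoles of the parasite Toxoplasma, was the most abundant member in both groups. It had 252 FPKM in WT and 349 FPKM in Tet2 KO (log2 ratio 0.47). Gbp5, known for promoting assembly of the NLRP3 inflammasome, had 6.69 FPKM in WT and 10.7 FPKM in Tet2 KO (0.60), the largest ratio of the family on the higher side. Gbp3 had 91.2 FPKM in WT and 96.7 FPKM in Tet2 KO (0.08), and Gbp7 had 114 and 108 FPKM (-0.07). Neither Gbp2 nor Gbp5 reached 2-fold. Beside these, 11 markers of macrophages and neutrophils summed to 592 FPKM in WT and 2091 FPKM in Tet2 KO. Most of that sum came from S100a8, S100a9 and Lyz2. The part of such cells in the levels of Gbp2 and Gbp5 was not tested.

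**Figure D1:**
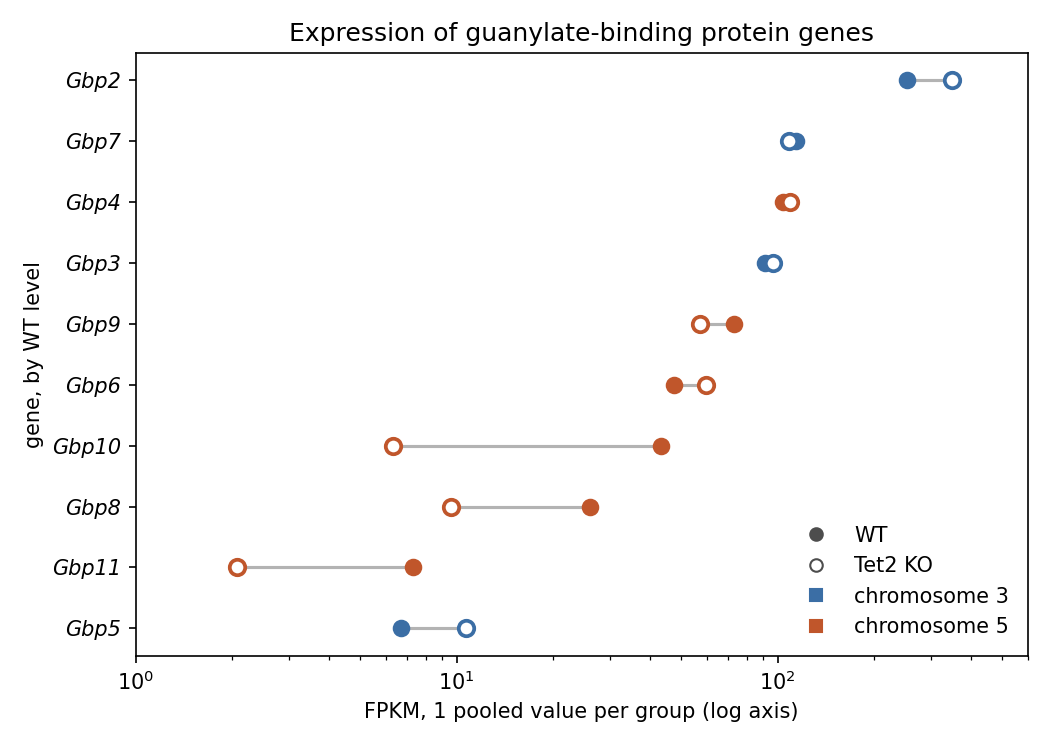
FPKM of each member in WT (filled) and Tet2 KO (open), 1 pooled value per group and no error, on a log axis, ordered by WT level and coloured by chromosome. Long bars mark Gbp10 (43.2 in WT, 6.32 in Tet2 KO), Gbp8 and Gbp11 on chromosome 5, while Gbp7, Gbp4 and Gbp3 sit close together in both groups.

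Ordered by level in WT, which FPKM allows because it is per length, the members ran Gbp2, Gbp7, Gbp4, Gbp3, Gbp9, Gbp6, Gbp10, Gbp8, Gbp11 and Gbp5. The Tet2 KO order was Gbp2, Gbp4, Gbp7, Gbp3, Gbp6, Gbp9, Gbp5, Gbp8, Gbp10 and Gbp11. Without values per library it cannot be said which neighbours in these orders differ. Gbp10 stood at rank 2241 of all genes by level in WT and at rank 8279 in Tet2 KO. Its share of the summed FPKM of the family was 5.65% in WT and 0.782% in Tet2 KO. Gbp2 made up 33.0% in WT and 43.1% in Tet2 KO. Median log2 ratios were -0.85 over the 6 chromosome 5 members, 0.27 over the 4 chromosome 3 members and -0.0044 over the 11692 genes.

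**Figure D2:**
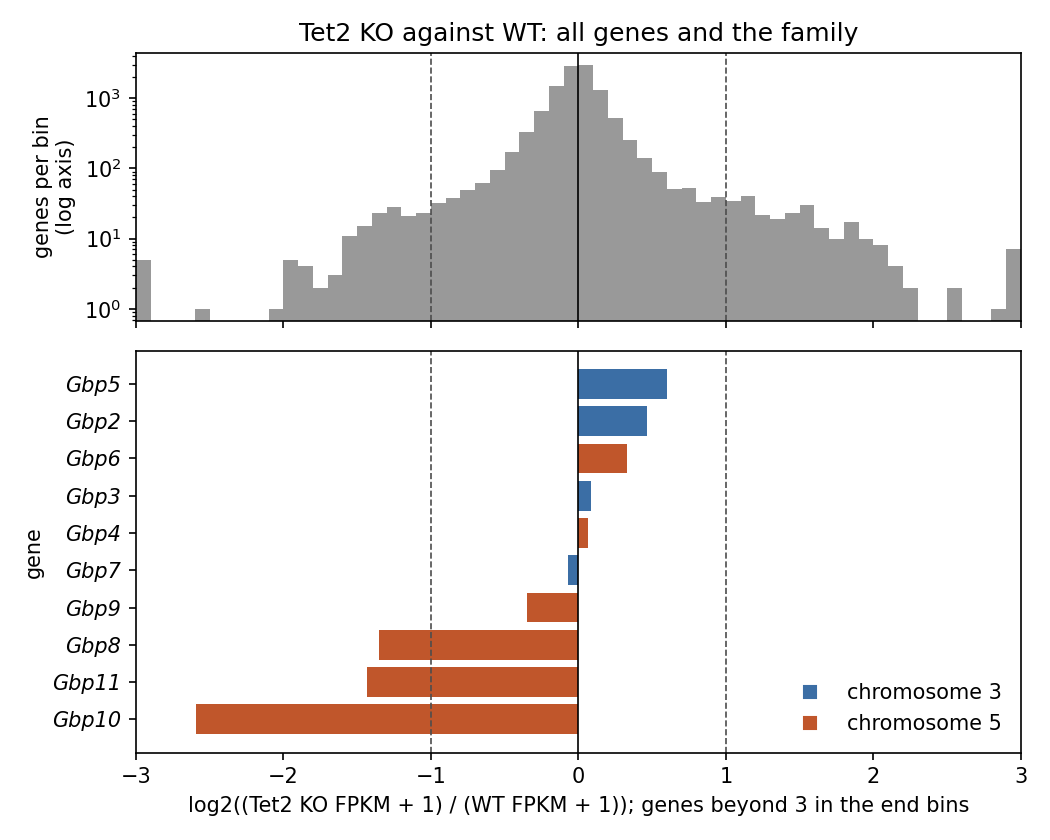
Upper panel, the number of genes (log axis) per bin of the log2 ratio of Tet2 KO over WT at FPKM + 1, for the 11692 genes that averaged 1 FPKM or more. Lower panel, the same ratio for the 10 members, coloured by chromosome. Dashed lines mark 2-fold. Gbp10 (-2.59), Gbp11 (-1.43) and Gbp8 (-1.35) lie beyond the lower line, and the other 7 members lie between the lines.

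To ask whether signal had passed from Gbp10 to its relatives, the levels of the copies were added. Ratios of sums, here and below, were taken with no pseudocount. For the near-identical pair Gbp6 and Gbp10 the sum was 90.6 FPKM in WT and 66.2 FPKM in Tet2 KO (log2 ratio of the sums -0.45). Gbp10 was lower by 36.9 FPKM, and Gbp6 was higher by 12.4 FPKM, which is 33.6% of that loss. Gbp10 made up 47.6% of the pair in WT and 9.55% in Tet2 KO. Since FPKM divides by length, the pair was also weighted by transcript length to put it in proportion to fragments. With the longest annotated transcripts the gain of Gbp6 came to 34.2% of the loss of Gbp10. With the shorter Gbp10 transcript, whose ends match the locus in the table, it came to 41.1%, and the log2 ratio of the pair was -0.35. The 3 scales weight the same pooled values and are not separate checks. On each, the gain of Gbp6 was smaller than the loss of Gbp10. A sum of pooled values cannot show whether fragments passed from Gbp10 to Gbp6, since a change in either gene also moves it. Fragments that fit both genes were divided in a way that is not given in the sources used here, so how much of the difference lies in each gene of the pair was not tested.

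The whole chromosome 5 cluster was also lower in sum. It had 301 FPKM in WT and 244 FPKM in Tet2 KO, a change of -19.0% (log2 ratio -0.30). Gbp4 and Gbp6 were higher by 17.4 FPKM together, which is 23.3% of the summed loss of Gbp8, Gbp9, Gbp10 and Gbp11, a difference of -74.5 FPKM. Without Gbp10 the cluster had 258 FPKM in WT and 238 FPKM in Tet2 KO (-0.12). Since the levels of Gbp6 and Gbp10 are uncertain singly, the cluster was also divided into this pair and the rest. The pair differed by -24.5 FPKM, and Gbp4, Gbp8, Gbp9 and Gbp11 together by -32.7 FPKM, from 210 FPKM in WT to 178 FPKM in Tet2 KO (-0.24). The chromosome 3 cluster had 464 FPKM in WT and 564 FPKM in Tet2 KO (0.28), higher by 101 FPKM. Gbp2 made up 96.1% of that gain, and the other 3 members had 212 FPKM in WT and 216 FPKM in Tet2 KO (0.03). Over both clusters the sum was 765 FPKM in WT and 808 FPKM in Tet2 KO, a change of 5.68% (0.08). Chromosome 3 members made up 60.6% of the family sum in WT and 69.8% in Tet2 KO. Gbp2, which carries the chromosome 3 gain, shares 0 stretches of 50 bases with the chromosome 5 members. The read length and the treatment of fragments that fit several genes are not known. Whether signal passed between the clusters was not tested.

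**Figure D3:**
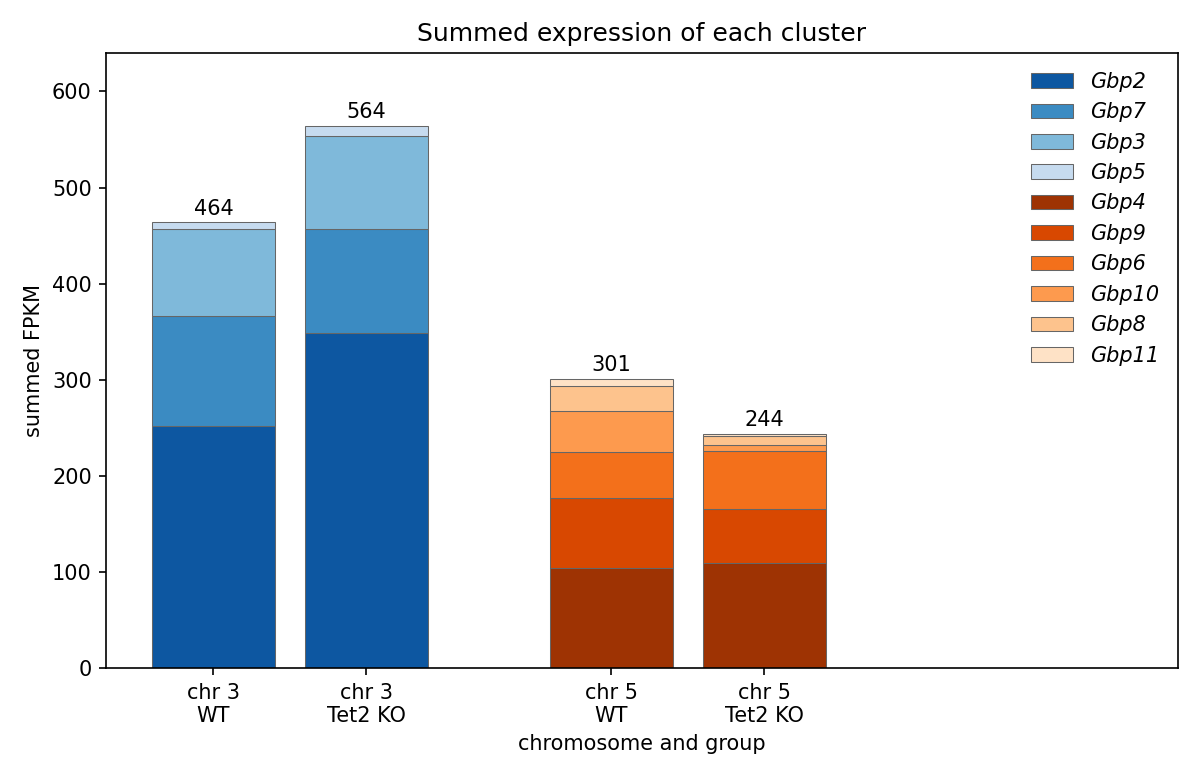
Summed FPKM of the 4 chromosome 3 members (blue) and the 6 chromosome 5 members (orange) in WT and Tet2 KO, stacked by gene, with no error because each group has 1 pooled value. The chromosome 3 bar is higher in Tet2 KO (564 against 464) through its Gbp2 block, and the chromosome 5 bar is lower (244 against 301), with smaller blocks for Gbp8, Gbp9, Gbp10 and Gbp11.

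The possible destinations of such reads were then looked up in the mm9 genome itself, as runs of at least 50 bases without a mismatch outside the gene's own locus. For Gbp10, 93.6% of the 4234 bases of its longest transcript had such a copy, 90.4% in Gbp6, 13.2% in Gbp4, 11.2% in Gbp9, 9.92% in Gbp8 and 7.13% in Gbp11. None of its bases had a copy on another chromosome. For Gbp6 the share was 94.2%, for Gbp11 63.0%, for Gbp8 48.9%, for Gbp9 39.3% and for Gbp4 26.6%. On chromosome 3 it was 15.5% for Gbp5, all of it outside both clusters, 10.03% for Gbp3, 5.56% for Gbp2 and 5.23% for Gbp7. The copies of Gbp2 lay in Gbp2b and those of Gbp3 mainly in Gbp7. Between the clusters, 50 bases of Gbp3, 100 of Gbp7, 50 of Gbp9 and 50 of Gbp11 had a copy in a member on the other chromosome. A further set of copies lay between Gbp4 and Gbp10, from 105568606 to 105644717 on chromosome 5, an interval of 76.1 kb with no gene in the annotation or the table. It held copies of 9.80% of the Gbp10 transcript, 9.90% of Gbp6, 28.4% of Gbp11 and 23.3% of Gbp9.

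The 3 members that were at least 2-fold lower differed in how much of them is their own. For Gbp8, 81.7% of 50-base stretches occurred in no other coding transcript, for Gbp11 65.5% and for Gbp10 21.3%. The share grew with the length of the stretch, and for stretches of 100 bases it was 96.7% for Gbp8, 89.2% for Gbp11 and 35.0% for Gbp10. The read length is not given in the sources used here. Gbp8 was 2.71-fold lower and Gbp10 6.84-fold. In the genome, which holds more than coding transcripts, 48.9% of Gbp8 bases and 93.6% of Gbp10 bases lay in a copied run. Gbp8 is thus only partly distinct by that measure. The single levels of Gbp10 and Gbp6 are thus uncertain, and so to a lesser degree are those of Gbp11 and Gbp8.

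Gbp2b, a further gene of the chromosome 3 cluster that the annotation names Gbp1, was not among the members. It lies next to Gbp2, with 82.5% coding identity, and had 3.13 FPKM in WT and 1.53 FPKM in Tet2 KO (log2 ratio -0.71). Its level is small beside the 96.7 FPKM by which Gbp2 was higher. The genes next to the clusters were close to equal in both groups. Of 10 listed genes, near the clusters or farther out, that averaged 1 FPKM or more, 0 passed 2-fold. Over all genes the shares were 1.21% lower and 2.08% higher. Ratios of the 10 ran from -0.13 for Zfp644, which lies farther out, to 0.26 for Lrrc8c, with a median of 0.03. Beside Gbp8, Abcg3 and, behind it, Zfp951 were under 1 FPKM in both groups. Beside Gbp5, Pdlim5, which was not on the list, had 23.6 FPKM in WT and 23.0 FPKM in Tet2 KO. Beside Gbp11, Lrrc8b had 8.10 FPKM in WT and 8.61 FPKM in Tet2 KO. Beside Gbp2, Kyat3 had 4.46 and 4.04 FPKM and Gtf2b 51.1 and 51.6 FPKM, and Pkn2 behind them had 32.7 and 34.8 FPKM. Farther out, Lrrc8d (0.19), Zfp326 (0.05), Lmo4 (-0.01) and Znhit6 (-0.04) had small ratios too, and Hfm1 was listed at 0.

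The pathway that drives the family was then described from lists of genes. None of 18 genes of interferon-gamma reception and signalling that averaged 1 FPKM or more passed 2-fold in either direction. Over all 11692 genes, 1.21% were at least 2-fold lower and 2.08% at least 2-fold higher. At these shares a list of this length would hold few such genes or none. The 18 genes had a median log2 ratio of 0.15, with 15 higher and 3 lower. Irf1, a transcription factor of the interferon response, had 182 FPKM in WT and 202 FPKM in Tet2 KO (0.15). Ifngr1, a chain of the interferon-gamma receptor, had 14.9 FPKM in WT and 17.6 FPKM in Tet2 KO. The extremes were Irf8 at 0.59 and Ciita at -0.19. Ifng itself was listed at 0 in both groups. Interferon-stimulated genes outside the family showed no member past 2-fold among 28. Their median was 0.04, from -0.30 for the immunoproteasome gene Psmb8 to 0.63 for Oas3.

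The immunity-related GTPases, another interferon-induced GTPase family of the same defence, gave 0 of 10 genes past 2-fold and a median of -0.03. The shares over all genes were 1.21% at least 2-fold lower and 2.08% at least 2-fold higher. Iigp1 had 516 FPKM in WT and 511 FPKM in Tet2 KO, Irgm1 293 and 269 FPKM, and Igtp 243 and 234 FPKM, levels above those of most Gbp members. The extremes were the near copies Tgtp1 and Tgtp2. Tgtp1 had 71.5 FPKM in WT and 49.9 FPKM in Tet2 KO (-0.51), Tgtp2 had 13.5 and 22.3 FPKM (0.68), and 83.4% of the 50-base stretches of Tgtp1 occurred in Tgtp2. Their sum was 85.1 FPKM in WT and 72.2 FPKM in Tet2 KO. This pair and that of Gbp6 and Gbp10 thus both held 1 higher and 1 lower copy over a lower sum. Whether fragments passed between the copies of either pair was not tested. Among 22 partners of cell-autonomous defence, 2 passed 2-fold, both higher and both inflammasome genes. Casp1 had 1.84 FPKM in WT and 6.88 FPKM in Tet2 KO (1.47), and Pycard had 3.19 and 7.79 FPKM (1.07). The lowest was Map1lc3a at -0.42, and the autophagy genes Atg3, Atg5, Atg7, Atg12 and Atg16l1, of the machinery needed to bring these GTPases to vacuoles, lay from -0.27 for Atg12 to 0.03 for Atg3.

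Both groups carried the markers of myoblasts. Of 8 markers 0 passed 2-fold, beside 1.21% lower and 2.08% higher over all genes. Myod1 had 336 FPKM in WT and 313 FPKM in Tet2 KO. Ratios of the 8 markers ran from -0.27 for Des to 0.28 for Vcam1. Markers of macrophages and neutrophils, cells that the sort should have removed, were higher in Tet2 KO. All 11 were higher, 9 of them at least 2-fold, and their summed level was 592 FPKM in WT and 2091 FPKM in Tet2 KO. Most of that sum came from S100a8, S100a9 and Lyz2. In WT and Tet2 KO, S100a8 had 285 and 941 FPKM, S100a9 213 and 781 FPKM, and Lyz2 59.5 and 253 FPKM. Ptprc, by contrast, had 1.36 and 5.67 FPKM. Ratios of the 11 markers ran from 0.94 for Cd68 to 2.07 for Lyz2, and none of these markers was at 0. In bulk RNA, more cells of a type and more RNA per cell cannot be told apart. Gbp2, Gbp5, Gbp6, Casp1, Pycard and Irf8 were higher in the same group as these markers, and Gbp8, Gbp9, Gbp10 and Gbp11 were lower there. The part of leukocytes in either was not tested. Markers of T and natural killer cells were near 0, with 0.973 FPKM in WT and 1.12 FPKM in Tet2 KO in sum over 5 genes, nearly all from Lck. The 5 endothelial markers summed to 3.53 and 3.32 FPKM, with Pecam1 at 1.63 and 1.48 FPKM. Of 4 fibroblast markers that averaged 1 FPKM or more, 0 passed 2-fold, with a median of 0.41 and 0.95 for Dcn. The fibroblast list summed to 284 FPKM in WT and 300 FPKM in Tet2 KO. Nearly all of this was Ly6a, the gene of Sca1, at 278 and 288 FPKM, although the sort had left out Sca1+ cells. Tet2 had 6.64 FPKM in WT and 5.79 FPKM in Tet2 KO, a value over all exons that does not check the deletion of exon 3.

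Promoter sequence was at hand for the chromosome 3 members. The interferon-stimulated response element (ISRE), the DNA motif to which interferon-activated factors bind, was searched on both strands as 2 copies of GAAA with 2 bases of any kind between them, in the 250 bases before the start site, in RefSeq promoters of build GRCm38.p6. All 4 members had at least 1 match, and 2.98% of 32851 promoters did. For Gbp2 the match begins 59 bases before the start and for Gbp5 165 bases before it. In Gbp7 and Gbp3, whose levels were nearly equal in both groups, matches begin 53 and 45 bases before the start, with a further match in Gbp3 at 39 bases that overlaps it. A further Gbp3 entry held no match. The surroundings are shown because the same kind of match stood before members that were higher and members that were nearly equal. Capitals mark the match, which reads on the strand opposite to the motif as spelled. The windows lie on the plus strand of GRCm38.p6, a build whose positions differ from mm9, at chr3:142620589-142620628 for Gbp2, chr3:142496754-142496793 for Gbp5, chr3:142530268-142530307 for Gbp7 and chr3:142559984-142560023 for Gbp3.
Gbp2: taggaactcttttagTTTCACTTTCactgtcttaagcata
Gbp5: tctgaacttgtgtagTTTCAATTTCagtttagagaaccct
Gbp7: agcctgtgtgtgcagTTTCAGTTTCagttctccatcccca
Gbp3: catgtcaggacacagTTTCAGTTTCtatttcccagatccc
The gamma-activated site (GAS), a second motif of interferon-gamma responses, was searched as TTCNNNGAA in the same windows. It had 2 matches each in Gbp5 and Gbp7 and 0 in Gbp2 and Gbp3, and 7.02% of promoters held it. A match describes letters and does not show binding.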

How the data were processed

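Bulk RNA sequencing of 2 WT and 2 Tet2 KO primary myoblast libraries was used. Per the study's methods and the submitters' processing notes, the authors removed adapter sequence and bases of low quality, mapped the pairs to mm9 with TopHat2 2.0.13 and estimated expression with Cuffdiff 2.2.1. The gene annotation, the read length and the treatment of fragments that fit several genes were not given in the sources used here. The values are FPKM, deposited by the authors as 1 pooled value per gene and group. The table also holds the authors' own comparison (a ratio, a test statistic, p-value, q-value and call), which was not used. A test across libraries had been planned for values per library and was not run. Depth is unknown.

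Here, log2((Tet2 KO FPKM + 1) / (WT FPKM + 1)) was computed for single genes with a pseudocount of 1, which understates the change of low genes. Log2 ratios of summed levels had no pseudocount. Counts past 2-fold used genes that averaged 1 FPKM or more over the groups. All 10 members passed this filter. The members and lists were chosen with earlier results of these data known. Named were all members, other family genes and neighbours, Tet2, and the genes of each list past 2-fold or at its extremes, with well-known genes of the pathway added after their values were seen. Table starts count from 0 and were raised by 1. Transcripts and exons came from GENCODE vM1 on mm9. Coding parts were aligned globally with Biopython 1.88, and copies were found with BLAST+ 2.17.0 (word size 28). Shared stretches used all annotated coding transcripts of a gene, and promoters came from RefSeq. Calls and stretch counting were tested on simulated data. Python 3.11.15, numpy 2.4.6, pandas 2.3.3 and matplotlib 3.10.9 were used.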

Additional observations from a re-analysis of the deposited data

How the results depend on the processing

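No paired analysis was possible because each group has only a pooled value, and leaving out each library was not run for the same reason. Without a spread, a value was taken as alike when it stayed within 1.5-fold. Of 202 alternative values, 185 were alike in this sense and kept their direction. The log2 ratios of all 10 members did so under a pseudocount of 0.1, no pseudocount, TPM and median centring. These settings can hardly move the ratio of a well-expressed gene, so this likeness says little about how firm the ratios are. The limit is also wide for small ratios. The chromosome 3 sum counted as alike at 0.28 and, without Gbp2, at 0.03. The count of 142 genes at least 2-fold lower became 215 at a pseudocount of 0.1, 338 at 1.5-fold and 7 at 4-fold. The 243 genes at least 2-fold higher became 109 at a mean FPKM of at least 5, 435 at 1.5-fold and 24 at 4-fold. Of the members, 1 was lower at 4-fold (Gbp10) and 1 higher at 1.5-fold (Gbp5). The log2 ratio of the summed family turned from 0.08 to -0.16 without Gbp2. The sum of Gbp3 and Gbp7 turned from -0.00039 to 0.0031 under TPM, and the endothelial median from -0.08 to 0.024 with no filter on low values, as values near 0 can. The chromosome 5 sum ranged from -0.55 without Gbp4 to -0.12 without Gbp10, and that of chromosome 3 from 0.03 without Gbp2 to 0.38 without Gbp7. Of Gbp10 stretches, 76.1% occurred in Gbp6 at 50 bases, 69.2% at 75 and 64.3% at 100. For the shorter Gbp10 transcript alone these shares were 70.6%, 62.2% and 56.1%. Weighting by transcript length left the sums on the same side of 0. Depth is unknown, so no limit from depth was set for any member.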
